A study of Cavia porcellus with 44 samples.

Results

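The comparison described here was between guinea pig livers that had carried diet-induced fatty liver disease and were then returned to control feed (HFL/LFH, n = 6) and livers of animals kept on that control feed throughout (LFH, n = 8). These 14 animals, chosen by their group labels, are part of 44 whose liver mRNA was sequenced. All were female Hartley guinea pigs. HFL/LFH animals had 16 weeks of feed with 20% fat, 0.35% cholesterol, added sucrose and 50 mg vitamin C/kg, and then 16 weeks of feed with 3.8% fat, no cholesterol, no sucrose and 2000 mg vitamin C/kg. LFH animals had the second feed for all 32 weeks. The labels give the disease state as NAFLD for HFL/LFH and as healthy for LFH. Of the other groups, HFH (n = 8) had the high fat feed with 2000 mg vitamin C/kg for 32 weeks, HFL/HFL (n = 10) had it with 50 mg/kg for 32 weeks, and HFL/HFH (n = 6) moved from 50 to 2000 mg/kg on high fat feed. HFL/LFL animals (n = 6) moved to the low fat feed and stayed at 50 mg/kg. The question was what remained in the liver transcriptome of the earlier disease feed once both groups had eaten the same low fat, high vitamin C feed for 16 weeks. Fat, cholesterol, sucrose and vitamin C all differed between the groups in the first period, and LFH animals were pair-fed to HFH while HFL/LFH animals were pair-fed to HFL/HFH in the second. These differences cannot be told apart here. The labels give no batch, and the group sizes limit the precision.

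Guinea pigs, like humans, cannot make vitamin C and carry much of their cholesterol in LDL, which is why they serve as a model of diet-induced steatohepatitis. In this disease lipid accumulates in hepatocytes, macrophages take up lipid and debris and acquire a lipid-handling program marked by TREM2 and galectin-3, bile duct-like cells expand, and stellate cells lay down matrix. When the feed is withdrawn, fat and inflammatory cells clear, while scar and some cell states can persist.

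Total counts ranged from 21230991 to 27487635 in HFL/LFH and from 22594964 to 30816917 in LFH. Levels are given as CPM, counts scaled to the effective size of each library, and 3 counts, taken as the detection floor, corresponded to 0.133 to 0.174 CPM in these libraries. The tested hepatocyte markers summed to 85970 to 234500 CPM in HFL/LFH and to 126600 to 256800 CPM in LFH. HFL/LFH replicates 33 and 43 differed from the rest of their group. In a chi-square test of counts, either differed from the other 4 HFL/LFH animals by 250.1 to 394.8 per gene, against 62.07 to 88.26 among those 4 and 139.7 between the pair. The 28 pairs within LFH ranged from 59.23 to 291.3 with a median of 136.4, and 4 of them reached 250. Their normalization factors were 0.9914 and 1.002, against 0.752 to 0.8177 in the other 4 and 0.7126 to 0.913 in LFH. Albumin (ALB), the main secreted protein of hepatocytes, was 46800 and 52140 CPM in them, 123900 to 166800 CPM in the other 4 and 70530 to 176100 CPM in LFH, and the part of these differences in the results was not tested. Values without these animals are given where a call was lost or a list median moved by over 0.1 on the log2 scale. A gene is called here when its edgeR quasi-likelihood p, adjusted by the Benjamini-Hochberg method over the 7629 symbols tested, was below 0.05.

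After the switch, the higher genes included LGALS3 and TREM2, expressed by macrophages, and the keratin KRT23, and the lower genes were led by STARD4, a sterol carrier. Between HFL/LFH and LFH, 27 of 7629 genes were called (0.354%), of which 17 were higher (0.223%) and 10 lower (0.131%) in HFL/LFH, and 788 had an unadjusted p below 0.05. The levels of HFL/LFH and LFH animals did not overlap at all for 28 genes (0.367%), 8 higher (0.105%) and 20 lower (0.262%), of which 4 and 5 were called. For scale, 2877 genes (37.7%) were called between HFL/HFL and HFL/LFL, which differ in feed at the end of the study and share no animal with HFL/LFH or LFH. The count of 27 depended on single libraries and on the test. It was 19 without HFL/LFH replicate 33, with 15 of the 27 kept, and 31 without HFL/LFH replicate 43, with 24 kept. Without both it was 22 (12 higher and 10 lower), a setting added after the data were seen, and the 14 genes kept were LGALS3, TREM2, MMP12, KRT23, PPP1R36, RBM24, ARSJ, GRIK2, STARD4, GLUL, THY1, REXO2, PHLDA1 and C9orf152. Without LFH replicate 64 it was 52, with 25 kept. DESeq2 on the same 44 animals called 61 genes (37 higher and 24 lower), including all 27. The split turned with limma voom with sample weights, which called 4 higher and 13 lower, 12 of these 17 shared with edgeR. It also turned on the 14 animals alone, where edgeR called 1 higher and 2 lower and DESeq2 called 23 higher and 50 lower. With a filter of 200 counts over the 14 animals in place of all 44, added after the data were seen, edgeR called 8 higher and 10 lower, all 18 among the 27. STARD4 and LGALS3 were called under every alternative that was run.

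**Figure D1:**
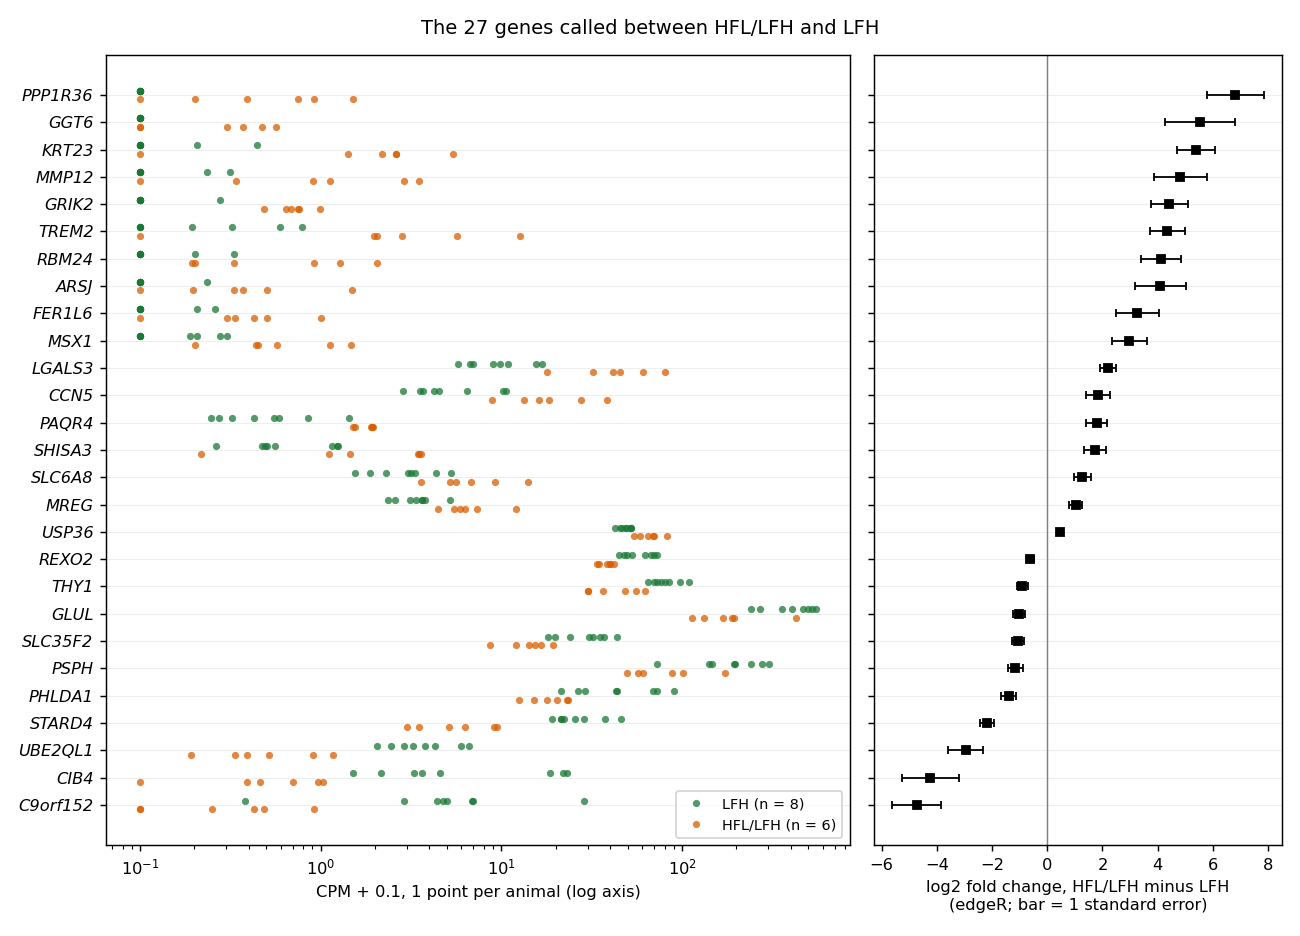
Left, level of each of the 27 called genes in every LFH (n = 8) and HFL/LFH (n = 6) animal, as CPM plus 0.1 on a log axis, 1 point per animal. Right, log2 fold change of HFL/LFH minus LFH from edgeR with 1 standard error. The 10 genes at the top of the plot are at or close to 0 in most LFH animals, while STARD4, UBE2QL1 and CIB4 show LFH points to the right of all HFL/LFH points.

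LGALS3 encodes galectin-3, a sugar-binding lectin made in quantity by activated macrophages. LGALS3 was 5.62, 9.29 and 16.7 CPM (lowest, median and highest animal) in LFH and 17.9, 43.3 and 80.8 CPM in HFL/LFH, so that all 6 HFL/LFH animals lay above the highest LFH animal. The mean rose 4.59-fold, from 10.1 ± 4.11 (SD, n = 8) to 46.3 ± 22 CPM (SD, n = 6), with a log2 fold change of 2.20 ± 0.29 (SE, edgeR adjusted p = 5.91e-06). It remained far below the level on high fat feed, since HFL/HFL animals had a mean of 461 ± 104 CPM (SD, n = 10). In HFL/LFL, the other switched group, the mean was 93.5 ± 28.5 CPM (SD, n = 6).

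TREM2 is a lipid-sensing receptor of myeloid cells and a defining marker of lipid-associated macrophages. It was 0 to 0.686 CPM in LFH and 0 to 12.6 CPM in HFL/LFH, with medians of 0.0468 and 2.33 CPM. Its mean was 4.12 ± 4.54 CPM (SD, n = 6) in HFL/LFH and 7.05 ± 4.09 CPM (SD, n = 6) in HFL/LFL. Of the 6 HFL/LFH animals 5 exceeded every LFH animal and 1, HFL/LFH replicate 43, had no count. The log2 fold change was 4.35 ± 0.63 (SE, edgeR adjusted p = 3.71e-05) and 3.56 without HFL/LFH replicate 33, which held the highest value. MMP12, the macrophage elastase, had a similar distribution, but held fewer than 200 counts over the 14 animals and passed the filter only through other groups. It was undetected or up to 0.216 CPM in LFH and reached 3.41 CPM in HFL/LFH, where the median was 0.915 CPM. Its log2 fold change of 4.82 ± 0.96 (SE) had an edgeR adjusted p of 0.00679, which became 0.0571 without HFL/LFH replicate 33. Neither TREM2 nor MMP12 was called by limma voom.

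KRT23 encodes a type I keratin of epithelial cells that is low in healthy liver and belongs here to the bile duct markers. It was 0 in the median LFH animal and at most 0.344 CPM, against a median of 2.29 and a maximum of 5.31 CPM in HFL/LFH. Again 5 of 6 HFL/LFH animals lay above all LFH animals, and the animal with no count was the same one as for TREM2 and MMP12. The log2 fold change was 5.38 ± 0.69 (SE, edgeR adjusted p = 3.40e-06). KRT23 was called with every animal left out in turn but not by limma voom or by edgeR on the 14 animals alone. In HFL/HFL its mean was 48.3 ± 15.8 CPM (SD, n = 10), and in HFL/LFL it was 8.80 ± 4.74 CPM (SD, n = 6).

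These genes varied together among the switched animals. HFL/LFH replicate 33 had the highest level of LGALS3, TREM2, MMP12 and KRT23, and HFL/LFH replicate 43 had the lowest level of each. Replicate 33 lay outside the LFH range for all 27 called genes and replicate 43 for 18, with the other 4 animals at 21 to 24. Because the genes were called on these animals, the counts describe how evenly the difference was shared and are no test of it. In bulk tissue, fewer cells of a type and less RNA per cell cannot be told apart.

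MREG, SLC6A8 and CCN5 were higher as well, at levels of several CPM. MREG, melanoregulin, acts in the maturation of lysosomes and phagosomes and rose 2.03-fold, from 2.25 to 5.10 CPM in LFH (median 3.40) to 4.37 to 11.9 CPM in HFL/LFH (median 6.01). SLC6A8, the creatine transporter, rose 2.42-fold, from 1.45 to 5.16 CPM (median 3.02) to 3.48 to 13.9 CPM (median 6.09). CCN5, a secreted matricellular protein of the CCN family, rose 3.59-fold, from 2.75 to 10.5 CPM (median 4.29) to 8.78 to 38.2 CPM (median 17.1). The ranges of all 3 genes overlapped. Their edgeR adjusted p were 0.0439, 0.0335 and 0.0335, and without HFL/LFH replicate 33 they were 0.213, 0.197 and 0.156. With each of the 14 animals left out in turn, MREG was called in 5 fits and SLC6A8 and CCN5 in 7 each.

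PAQR4, a membrane protein of the progestin and adipoQ receptor family, was 0.147 to 1.33 CPM in LFH and 1.41 to 1.84 CPM in HFL/LFH, so that no animals overlapped. Its log2 fold change was 1.80 with an SE of 0.38 (edgeR adjusted p = 0.0121, which became 0.0654 without HFL/LFH replicates 33 and 43). USP36, a nucleolar deubiquitinase, showed the smallest of the called changes. It was 42.6 to 52.1 CPM in LFH and 54.3 to 82.8 CPM in HFL/LFH, again without overlap, a 1.38-fold rise. Its edgeR adjusted p was 0.0121, and 0.078 without HFL/LFH replicate 3 and 0.0882 without replicates 33 and 43. SHISA3, an inhibitor of Wnt and FGF signaling, had a median of 0.432 CPM in LFH and 2.36 CPM in HFL/LFH, but HFL/LFH replicate 32 lay below every LFH animal (edgeR adjusted p = 0.0297, which became 0.105 without HFL/LFH replicate 33 and 0.0855 without replicate 43). SHISA3 was called in 7 of the 14 fits that left out an animal. GRIK2, a subunit of kainate-type glutamate receptors, was detected in 1 of 8 LFH animals, at 0.177 CPM, and in all 6 HFL/LFH animals, at 0.387 to 0.893 CPM (edgeR adjusted p = 8.74e-05).

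The other 6 higher genes had means below 1 CPM in both groups, as did GRIK2. RBM24, an RNA-binding regulator of splicing known from muscle, had a median of 0 CPM in LFH and 0.528 CPM in HFL/LFH (log2 fold change 4.12 ± 0.72, SE, edgeR adjusted p = 0.00108). PPP1R36, a regulatory subunit of protein phosphatase 1, had no count in any LFH library and up to 1.41 CPM in HFL/LFH, where the mean of 0.545 CPM was at least 3.62-fold higher than the floor of 3 counts per library. The corresponding bound was at least 1.46-fold higher for GGT6, a gamma-glutamyltransferase family member, 2.66-fold for the sulfatase ARSJ and 2.30-fold for FER1L6, a ferlin. MSX1, a homeobox factor of development, had medians of 0.045 CPM in LFH and 0.409 CPM in HFL/LFH. MSX1, ARSJ, GGT6 and FER1L6 are named because they complete the set, after their values were seen. None of these 6 genes was called by limma voom or by edgeR on the 14 animals alone, and GGT6 was called in 4, FER1L6 in 5 and ARSJ in 7 of the 14 fits that left out an animal. With all animals the edgeR adjusted p were 0.0379 for GGT6, 0.0128 for MSX1 and 0.0415 for FER1L6, and without HFL/LFH replicate 33 they were 0.0701, 0.0767 and 0.189. GGT6 was at 0.0685 without HFL/LFH replicate 43.

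STARD4 gave the smallest p of the comparison. It encodes a soluble protein that moves cholesterol between membranes, and its transcription is driven by SREBP2 when sterols are low. STARD4 was 18.9, 23.8 and 45.7 CPM (lowest, median and highest animal) in LFH and 2.91, 5.63 and 9.31 CPM in HFL/LFH, so that the groups lay well apart. The mean was 4.61-fold lower in HFL/LFH, at 5.98 ± 2.75 CPM (SD, n = 6) against 27.6 ± 9.35 CPM (SD, n = 8), with a log2 fold change of -2.20 ± 0.25 (SE, edgeR adjusted p = 4.65e-07). All 36 animals outside LFH lay between 2.91 and 9.47 CPM, below the lowest LFH animal. The switched animals were therefore at the level of animals still on high fat feed (mean 6.28 ± 1.90 CPM in HFL/HFL, SD, n = 10) rather than between them and LFH. STARD4 was the 1 called gene among 15 tested genes of cholesterol synthesis and uptake. The other 14 had log2 fold changes from -0.40 to 0.35 with a smallest edgeR adjusted p of 0.555, and the list median was -0.05 beside 0.01 over all genes. Without HFL/LFH replicate 33, 43 or both, the list median ranged from -0.02 to 0.08.

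GLUL and PSPH, enzymes of amino acid metabolism, were also lower. GLUL, the glutamine synthetase of hepatocytes around the central vein, was 240 to 551 CPM in LFH (median 438) and 114 to 430 CPM in HFL/LFH (median 179). In HFL/LFH, replicate 43 held the value of 430 CPM, with the next animal at 193 CPM, so that 5 of 6 animals lay below all LFH animals. The log2 fold change was -1.02 with an SE of 0.22 and an edgeR adjusted p of 0.0149, which became 0.0717 without HFL/LFH replicate 33. PSPH, which catalyzes the last step of serine synthesis, fell from a median of 195 CPM to 74.5 CPM, with 3 of 6 animals below the LFH range (edgeR adjusted p = 0.0415, which became 0.139 without HFL/LFH replicate 33). It was called in 5 of the 14 fits that left out an animal.

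THY1, a surface glycoprotein of fibroblasts, T cells and neurons, was 64.7 to 109 CPM in LFH and 29.9 to 61.9 CPM in HFL/LFH, without overlap. Its log2 fold change was -0.91 with an SE of 0.21 (edgeR adjusted p = 0.0297, and 0.112 without HFL/LFH replicate 3). REXO2, an oligoribonuclease that clears short RNAs in mitochondria and cytosol, was 44.7 to 72.6 CPM in LFH and 33.7 to 41.8 CPM in HFL/LFH, also without overlap (log2 fold change of -0.62 with an SE of 0.13, edgeR adjusted p = 0.0087). UBE2QL1, related to the E2 ubiquitin-conjugating enzymes, was 1.94 to 6.48 CPM in LFH and 0.0908 to 1.06 CPM in HFL/LFH. The 36 animals outside LFH did not exceed 1.26 CPM, so LFH stood above every other animal for this gene too (log2 fold change of -2.96 with an SE of 0.64, edgeR adjusted p = 0.0149, which became 0.0571 without HFL/LFH replicate 33).

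PHLDA1, a pleckstrin homology-like protein induced by growth factors, had a different course. PHLDA1 was 21.4 to 89.9 CPM in LFH (median 43.2) and 12.5 to 23.2 CPM in HFL/LFH (median 19; edgeR adjusted p = 0.0051), while HFL/HFL animals had a mean of 76.0 ± 14.8 CPM (SD, n = 10). Its mean was thus lowest in HFL/LFH and not part of the way to the high fat level, and it was 50.5 ± 26.7 CPM (SD, n = 6) in HFL/LFL. SLC35F2 was 17.9 to 43.8 CPM in LFH (median 31.2) and 8.6 to 19.3 CPM in HFL/LFH (median 14.7; edgeR adjusted p = 0.00679). C9orf152 and CIB4, the latter a calcium- and integrin-binding protein, spread widely within LFH, from 0.281 to 28.6 CPM and from 1.40 to 22.9 CPM. In HFL/LFH they did not exceed 0.814 and 0.929 CPM, respectively (edgeR adjusted p = 0.0051 and 0.0492). CIB4 was called in 4 of the 14 fits that left out an animal, with an edgeR adjusted p of 0.115 without HFL/LFH replicate 33 and 0.0879 without replicate 43.

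**Figure D2:**
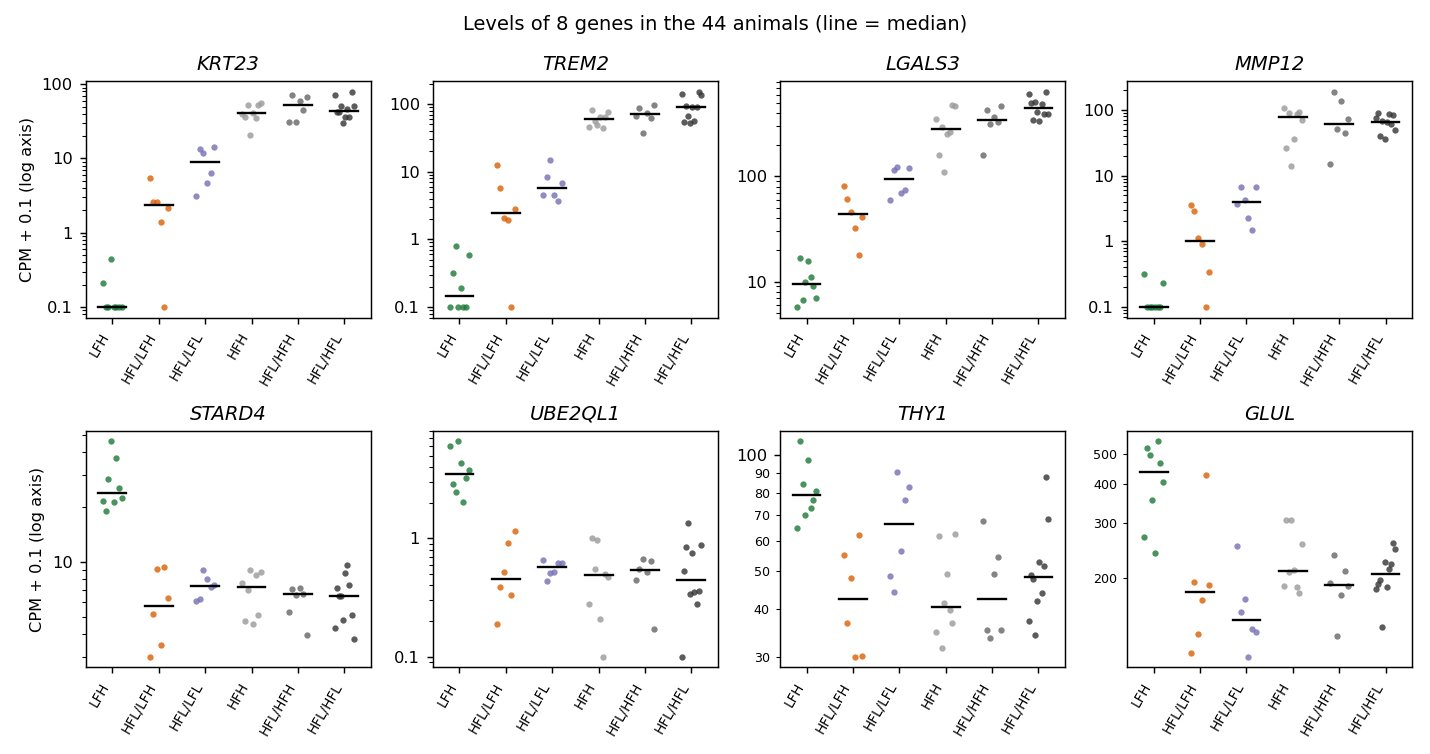
Levels of 4 genes higher (top) and 4 genes lower (bottom) in HFL/LFH than in LFH, in all 44 animals, as CPM plus 0.1 on a log axis with the median of each group. The 4 higher genes step up from LFH through HFL/LFH to the high fat groups, whereas STARD4 and UBE2QL1 are high in LFH and at a common low level in the 5 other groups.

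The called genes were next set beside the feed effect, measured between HFL/HFL and HFL/LFL. HFL/LFL animals were switched too, so a gene that stayed changed after the switch need not differ there. Of the 17 higher genes, 8 (GGT6, MSX1, MMP12, PPP1R36, RBM24, ARSJ, FER1L6 and GRIK2) held fewer than 200 counts over the 14 animals and passed the filter only through other groups, so they are left out of the counts that follow. Of the 9 others, 8 were also called higher in HFL/HFL than in HFL/LFL, as were 20.1% of the 6541 genes with 200 counts over the 14 animals. The 8 were KRT23, LGALS3, TREM2, PAQR4, SHISA3, CCN5, SLC6A8 and MREG. USP36 was called lower in HFL/HFL than in HFL/LFL (log2 fold change -0.34). Its mean was 51.0 CPM in HFL/HFL, 50.3 in HFH and 48.4 in LFH, against 64.5 in HFL/LFL and 66.6 in HFL/LFH. All 10 lower genes held 200 counts, and 1, CIB4, was called lower there, beside 20.9% of the 6541. Between HFH and LFH, which shares the LFH animals with the main comparison, 8 of the 10 were called lower. In that comparison 49.1% of all genes were called in either direction. The level reached in HFL/LFH was also set against HFL/HFL. For the 9 higher genes the HFL/LFH mean was 11.4% of the HFL/HFL mean in the median gene and under 50% in 8 of them. For the 10 lower genes the median was 97.2%, and 7 were within 1.5-fold of the HFL/HFL mean. The restriction was added after the data were seen.

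Among the genes called between HFL/HFL and HFL/LFL, the median difference of HFL/LFH from LFH was near 0. Genes that stayed equally changed in HFL/LFL, such as STARD4, are not in this set. The values below therefore do not measure how much of the feed effect remained. Of 1498 genes called higher in HFL/HFL than in HFL/LFL (19.6%), 857 (57.2%) were higher in HFL/LFH than in LFH, compared with 52.2% of all genes. Their median log2 fold change was 0.91 for the feed and 0.05 for HFL/LFH minus LFH. Of 1379 genes called lower in HFL/HFL (18.1%), 44.2% were higher in HFL/LFH, with a median of -0.03. Of the 1498 and 1379 genes, 1313 and 1366 held 200 counts over the 14 animals. The rest passed the filter only through other groups and remain in these shares and medians. Across the 7629 genes the log2 fold changes of these comparisons had a Pearson's r of 0.0791 and a Spearman's rho of 0.13. Genes are not independent replicates, and these values describe the fit only.

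**Figure D3:**
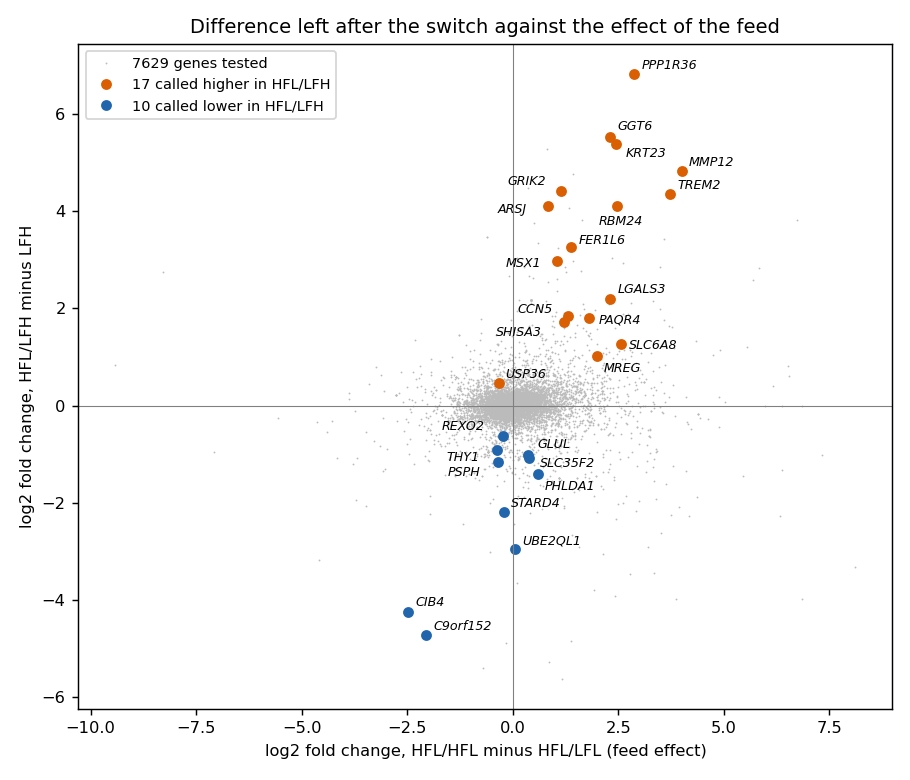
Log2 fold change of HFL/HFL minus HFL/LFL (x axis, feed effect) and of HFL/LFH minus LFH (y axis) for the 7629 genes tested, with no animal shared between the axes. The 17 genes called higher in HFL/LFH lie to the right of 0 except USP36, 8 of them having passed the filter only through other groups, and 8 of the 10 called lower lie within 1 log2 unit of 0 on the x axis. HFL/LFL animals were switched too, so genes that stayed changed after the switch lie near 0 on that axis.

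The whole profile of each animal was placed on a line from the mean of HFL/LFL (0) to the mean of HFL/HFL (1) in the variance-stabilized values of 7626 genes. LFH animals lay at -0.0932 ± 0.12 (SD, n = 8) and HFL/LFH animals at -0.035 ± 0.21 (SD, n = 6). The ranges, -0.261 to 0.0412 and -0.239 to 0.338, overlapped, and the difference of 0.0582 had a two-sided exact permutation p of 0.551, where 0.000333 was the smallest the design allows. The highest value was that of HFL/LFH replicate 33, and without it the difference was -0.0164 (exact permutation p = 0.805). Without replicates 33 and 43 it was -0.0614 (exact permutation p = 0.36). HFH animals lay at 0.964 ± 0.179 (SD, n = 8). HFL/LFL animals were switched too, so genes at the same level in HFL/LFL and HFL/HFL, such as STARD4, carry little weight on this line. The test does not cover differences of that kind.

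**Figure D4:**
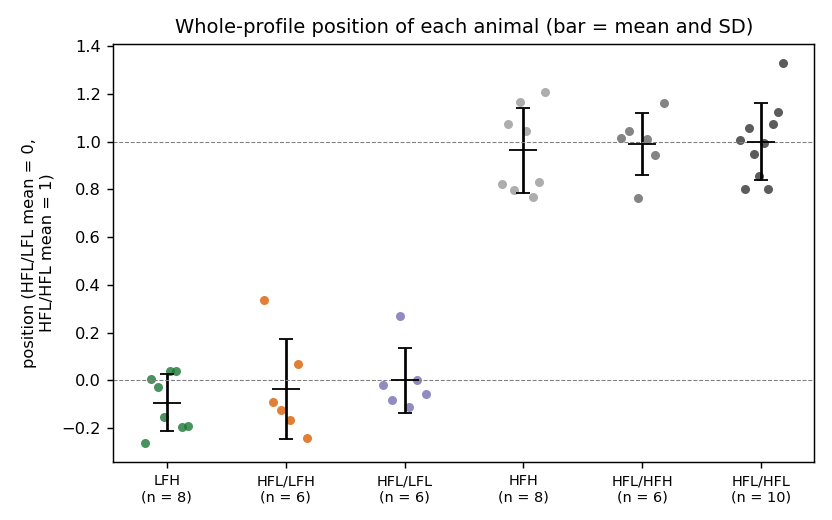
Position of each of the 44 animals on the line from HFL/LFL (0) to HFL/HFL (1), 1 point per animal, with the mean and SD of each group. LFH, HFL/LFH and HFL/LFL overlap around 0 and the 3 groups on high fat feed lie around 1; the HFL/LFH point at 0.338 is replicate 33.

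A related contrast of history was available on high fat feed. HFL/HFH animals had 50 mg vitamin C/kg in the first 16 weeks and HFH animals 2000 mg/kg, and both had high fat feed at the end. No gene was called between them by edgeR or by DESeq2, and 461 had an unadjusted p below 0.05 in edgeR. The difference between the contrasts was called for 8 genes (0.105%), 7 higher (0.0918%) and 1 lower (0.0131%). These were KRT23, TREM2, LGALS3, GRIK2, PPP1R36, PAQR4 and TGFB3, which were higher, and STARD4, which was lower. GRIK2 and PPP1R36 passed the filter only through other groups, and with the filter of 200 counts over the 14 animals 6 genes were called, 5 higher and 1 lower, all among the 8. For STARD4 the log2 fold change was -2.20 after the switch to low fat feed and -0.18 on high fat feed, and for LGALS3 2.20 and 0.20. TGFB3, a ligand of the TGF-beta family, missed the threshold between HFL/LFH and LFH, where it was 7.01 to 38.1 CPM and 4.21 to 8.79 CPM (log2 fold change 1.60 ± 0.42, SE, edgeR adjusted p = 0.0752). It was called there by DESeq2 (adjusted p = 0.017) and by edgeR without HFL/LFH replicate 43 (adjusted p = 0.0454). Without HFL/LFH replicate 33, 4 of the 8 remained, namely KRT23, STARD4, PPP1R36 and GRIK2. Without replicates 33 and 43, 8 were called, 7 of them shared, with ARSJ in place of PAQR4. The split turned with limma voom, which called 2 higher and 4 lower, 3 of these 6 (STARD4, LGALS3 and GRIK2) shared with edgeR, while DESeq2 called 13 higher and 7 lower, including all 8. The history differs in fat as well as vitamin C in the first contrast and in vitamin C alone in the second, which cannot be told apart from the feed at the end.

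Lists of cell type markers were counted in the same way. Over all genes, 0.354% were called, 52.2% had a log2 fold change above 0 and 47.7% below 0, and the median was 0.01. In 14 of all the lists used here, 33 members held fewer than 200 counts over the 14 animals and passed the filter only through other groups. Without them no list median changed sign, and the largest move was 0.0813. Of 12 tested lipid-associated macrophage markers, 11 had a log2 fold change above 0 and 3 were called (TREM2, LGALS3 and MMP12), with a list median of 0.36. MMP12 held fewer than 200 counts over the 14 animals and passed the filter only through other groups, and without it 10 of 11 were above 0, where 51.7% of the 6541 genes with 200 such counts were, with 2 called and a median of 0.34. Without HFL/LFH replicate 33, 11 of 12 were above 0 and the median was 0.25, with TREM2 and LGALS3 called. Without replicate 43, and without both, 10 were above 0 and the median was 0.34, with all 3 called. Their summed level was 1249 to 1865 CPM in HFL/LFH and 1051 to 1481 CPM in LFH, which overlapped. FABP5, a fatty acid-binding protein of this list, was 1.58 to 9.55 CPM in LFH and 4.18 to 15.9 CPM in HFL/LFH without passing the test (edgeR adjusted p = 0.157). Among 7 Kupffer cell markers none was called and the median was -0.13, which became -0.20 without HFL/LFH replicate 33 and -0.23 without replicate 43. Of 7 cholangiocyte markers 6 were above 0 with a median of 0.62, and KRT23 was the called one. Without HFL/LFH replicate 33, 5 were above 0 with a median of 0.38, and without both replicates 33 and 43 the median was 0.44. EPCAM, an adhesion molecule of bile duct cells, was 9.29 to 25.3 CPM in LFH and 15 to 56.6 CPM in HFL/LFH (edgeR adjusted p = 0.173), with the highest value again in replicate 33.

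Of 13 tested markers of stellate cells and fibroblasts, 11 were below 0, where 47.7% of all genes were, with a median of -0.24 (-0.32 to -0.27 without HFL/LFH replicate 33, 43 or both), and THY1 was the called one. Endothelial markers were below 0 in 7 of 7 with a median of -0.19 and none called (6 of 7 and -0.14 without HFL/LFH replicate 33, and -0.10 without replicates 33 and 43), and hepatocyte markers in 7 of 7 with a median of -0.24 and none called. The hepatocyte median was -0.14 without HFL/LFH replicate 43 and -0.07 without replicates 33 and 43, with 4 of 7 below 0 in either case. PECAM1, the endothelial adhesion molecule, was 124 to 178 CPM in LFH and 120 to 131 CPM in HFL/LFH (edgeR adjusted p = 0.278). No marker was called among those of neutrophils (11 tested, median -0.28), T and NK cells (15, 0.19), B and plasma cells (14, 0.14) and other abdominal tissue (4, -0.04). Without HFL/LFH replicate 43 the neutrophil median was -0.68 and that of T and NK cells -0.07, and without replicates 33 and 43 they were -0.51 and -0.17, with B and plasma cells at -0.06 and other abdominal tissue at 0.07. Of the neutrophil markers 4 and of the B and plasma cell markers 4 held fewer than 200 counts over the 14 animals. The 3 tested erythroid markers had a median of -1.44 with none called (-1.99 without replicates 33 and 43), and 2 of them, HBA1 and HBA2, carry the same counts. HBA1, a hemoglobin chain, was 232 to 1768 CPM in LFH and 88.8 to 551 CPM in HFL/LFH (edgeR adjusted p = 0.446), and the part of blood content in the results was not tested.

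Among the members of the lists of matrix structure, matrix enzymes and cell cycle, MMP12 was the called one, where 0.354% of all genes were called. MMP12 passed the filter only through other groups, and without HFL/LFH replicate 33 no member of these lists was called. CCN5, a matricellular protein called higher, was in none of these lists. The 23 extracellular matrix genes had a median of -0.02 in HFL/LFH minus LFH (-0.10 to -0.06 without HFL/LFH replicate 33, 43 or both), beside 1.24 in HFH minus LFH, a comparison that shares the LFH animals and in which 21 were called, where 49.1% of all genes were. THBS1, a matrix glycoprotein that activates latent TGF-beta, was 9.68 to 20.3 CPM in LFH and 12.9 to 45.8 CPM in HFL/LFH (edgeR adjusted p = 0.371). The 21 matrix crosslinking enzymes, proteases and inhibitors had a median of 0.07, which became -0.13 without HFL/LFH replicate 43 and -0.18 without replicates 33 and 43. Its P4HA3, a collagen prolyl hydroxylase subunit, was called lower by DESeq2 on the 14 animals alone (log2 fold change -1.42, adjusted p = 0.00322) and not by edgeR (adjusted p = 0.176). Of 24 cell cycle genes 17 were below 0, beside 47.7% of all genes, with a median of -0.34 beside 2.50 in HFH minus LFH. Of these, 6 (CCNA2, CCNB1, CCNE1, CDK1, CDCA8 and FBXO5) passed the filter only through other groups, and without them 12 of 18 were below 0 with a median of -0.27. RRM2, a subunit of ribonucleotide reductase, was 0.255 to 2.21 CPM in LFH and 0.145 to 0.872 CPM in HFL/LFH (edgeR adjusted p = 0.255).

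Genes of lipid and energy metabolism were followed next. No gene was called for fatty acid synthesis (13 tested, median -0.09), fatty acid oxidation and ketogenesis (13, -0.01), lipid droplets and lipid uptake (14, 0.13) or sterol efflux and LXR targets (12, -0.09). Without HFL/LFH replicate 33, 43 or both, these medians ranged from -0.18 to -0.04, from 0.04 to 0.15, from 0.19 to 0.27 and from -0.04 to -0.01. PLIN5, a lipid droplet coat protein of oxidative tissue, was 144 to 293 CPM in LFH and 166 to 697 CPM in HFL/LFH (edgeR adjusted p = 0.165, and 0.0131 with DESeq2 on the 14 animals alone). CPT1A, which admits fatty acids to mitochondria, was 66.2 to 539 CPM in LFH and 110 to 908 CPM in HFL/LFH (edgeR adjusted p = 0.372). Of 30 genes of the mitochondrial respiratory chain 28 were below 0, with a median of -0.14, none called and 8 with an unadjusted p below 0.05. Over all genes 47.7% were below 0, and 4.77% were lower at an unadjusted p below 0.05. For NDUFB3, a complex I subunit, the values were 103 to 155 CPM in LFH and 101 to 137 CPM in HFL/LFH (edgeR adjusted p = 0.221). GLUL was the 1 called gene of 14 for glucose and amino acid metabolism, whose median was 0.00, and 0.11 to 0.21 without HFL/LFH replicate 33, 43 or both.

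Defense and stress lists had no gene called by edgeR. Their medians were -0.02 for 16 antioxidant genes and NRF2 targets, -0.02 for 21 genes of ascorbate transport and ascorbate-dependent enzymes, -0.14 for 16 xenobiotic-metabolizing genes and 0.02 for 20 genes of the unfolded protein and heat shock response. They were -0.31 for 11 acute phase genes, -0.08 for 24 genes of interferon gamma and antigen presentation, 0.08 for 10 type I interferon genes, -0.05 for 24 chemokines, cytokines and receptors, and 0.17 for 15 immediate-early genes. Several of these medians moved when HFL/LFH replicate 33, 43 or both were left out. They then ranged from -0.34 to -0.13 for interferon gamma and antigen presentation, from -0.18 to 0.12 for type I interferon, from -0.21 to -0.12 for acute phase genes, from -0.29 to -0.19 for chemokines, cytokines and receptors and from -0.06 to 0.22 for immediate-early genes. The corresponding ranges were -0.07 to 0.07 for the unfolded protein and heat shock response, 0.01 to 0.05 for the ascorbate genes and -0.08 to -0.05 for the xenobiotic-metabolizing genes. DESeq2 on the 14 animals alone called UGT2A3 lower, a glucuronosyltransferase that carries the same counts as UGT2A1 (adjusted p = 0.0231), and CXCL10, an interferon-induced chemokine (adjusted p = 0.0439), where edgeR gave adjusted p of 0.321 and 0.479. TGFB2, a TGF-beta ligand of the cytokine list, was called lower by DESeq2 (adjusted p = 0.0206) and by edgeR without HFL/LFH replicate 33 (adjusted p = 0.0264), with an edgeR adjusted p of 0.0752 on all animals. Of 10 circadian clock genes, none was called by edgeR on all animals and the median was -0.07. ARNTL, the clock activator also named BMAL1, was 13.8 to 44.1 CPM in LFH and 30.3 to 78.7 CPM in HFL/LFH (log2 fold change 0.80 ± 0.22, SE, edgeR adjusted p = 0.10). DESeq2 called it (adjusted p = 0.0422), as did edgeR without HFL/LFH replicate 43 (adjusted p = 0.039). DBP, a clock output factor, was 27.5 to 135 CPM in LFH and 10.7 to 83.9 CPM in HFL/LFH (log2 fold change -1.01 ± 0.41, SE, edgeR adjusted p = 0.337).

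**Figure D5:**
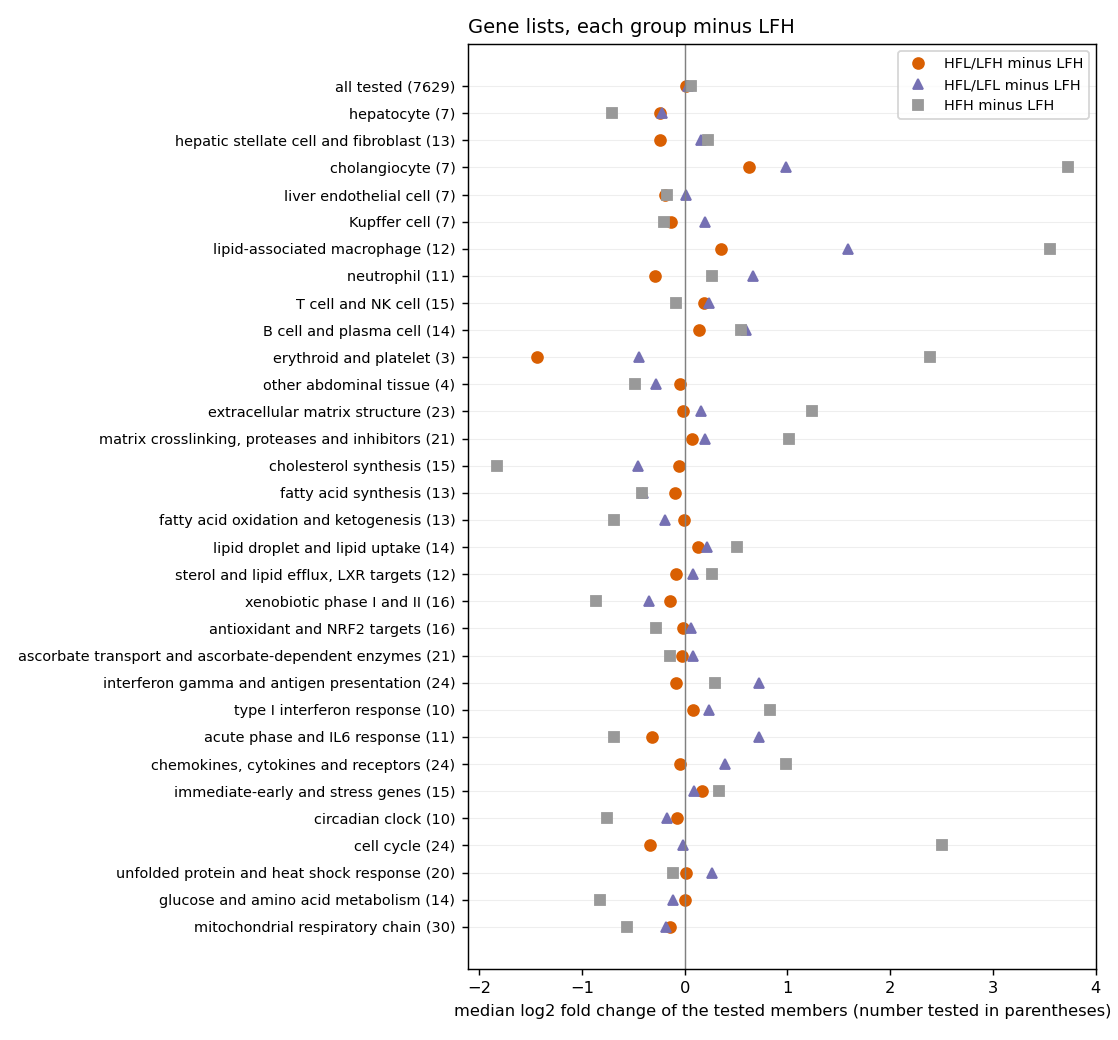
Median log2 fold change of the tested members of each gene list for HFL/LFH, HFL/LFL and HFH, each minus LFH, with the number of members tested in parentheses; all 3 share the LFH animals. The HFL/LFH medians lie between -0.34 and 0.62 except for the erythroid list at -1.44, while the HFH medians reach 3.73 for cholangiocyte and 3.56 for lipid-associated macrophage markers.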

How the data were processed

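Liver mRNA was sequenced by the study from 44 guinea pigs. According to the methods and the submitters' processing notes, the authors demultiplexed with bcl2fastq 2.19, trimmed with Trimmomatic 0.38.0, mapped to the Cavpor3.0 genome with HISAT2 2.1.0, quantified with StringTie 2.1.1 and named genes by their human orthologues. The authors deposited a table of gene counts and a table of variance-stabilized log2 values from DESeq2. The rows without a gene name (236, holding 2.30% to 3.07% of counts) were left out, and 0 columns belonged to another series. Strand handling and the conversion of StringTie output to counts are not given in the sources used here.

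The counts of symbols with a total of at least 200 (7629 of 11731) were normalized by TMM and fitted with edgeR 4.0.16 (R 4.3.3), with 1 mean for each of the 6 groups and no covariate. Benjamini-Hochberg adjusted p below 0.05 was called. CPM used effective library sizes. Of the tested symbols, 762 carry the same counts as another symbol, which leaves 7138 distinct profiles; the 27 called are distinct from one another. The whole-profile position used the log2 values with an exact permutation test. DESeq2 1.42.0 and limma 3.58.1 served as alternatives. The pipeline was tested on simulated data. All 43 pairs of animals within HFL/LFH and within LFH differed beyond sampling noise (chi-square per gene of at least 59.2). The labels give animals as replicates.

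Named genes were the called genes with the smallest p and a mean of at least 1 CPM in either group (up to 12 in each direction), and those called in the same direction for the feed. Added to these were called list members or else members with the smallest p, the most changed of the called genes without overlap, and those with the smallest interaction p. Genes without overlap that were not called were not named for that reason. The groups and lists were chosen with earlier results of these data known. Gene coordinates and sequences were not used here.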

Additional observations from a re-analysis of the deposited data

Results flagged for a closer look

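In 100 groups of values tested for a single animal far from the rest, 10 were found. The test flags about 1 in 20 by chance only where values are normally distributed. Levels near 0 are not, so that rate is no measure of an excess here. In LFH these were KRT23 at 0.344 CPM in replicate 92 (next 0.108), RBM24 at 0.23 CPM in the same animal (next 0.102), GRIK2 at 0.177 CPM in replicate 56 and ARSJ at 0.135 CPM in replicate 5, the latter both with no count in any other LFH animal. C9orf152 was 28.6 CPM in LFH replicate 79 (next 6.86), and NDUFB3 was 103 CPM in LFH replicate 56 (next lowest 131). The total count of LFH replicate 5 was 30816917 (next 25976410). In HFL/LFH, GLUL was 430 CPM in replicate 43 (next 193), ARSJ was 1.40 CPM in replicate 32 (next 0.404) and EPCAM was 56.6 CPM in replicate 33 (next 28.0).

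For 8 genes the difference of HFL/LFH from LFH was itself different from that of HFL/HFH from HFH in edgeR at an adjusted p below 0.05. The difference between the contrasts, on the log2 scale, was -2.02 for STARD4, 5.09 for KRT23, 1.99 for LGALS3, 4.12 for TREM2, 4.58 for GRIK2, 2.40 for PAQR4 and 2.87 for TGFB3. It was 7.12 for PPP1R36, a value that depends on the prior count because no LFH library had a count.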

How the results depend on the processing

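No paired analysis was possible because the labels give each animal its own number and 1 group. The 27 genes called between HFL/LFH and LFH became 61 with DESeq2 (37 higher and 24 lower), 17 with limma voom with sample weights (4 higher and 13 lower), 3 with edgeR on the 14 animals alone (STARD4, LGALS3 and UBE2QL1) and 73 with DESeq2 on the 14 animals alone (23 higher and 50 lower), of which 18 were shared. With an animal left out the count ran from 19 (without HFL/LFH replicate 33) to 52 (without LFH replicate 64), and 12 of the 27 were called each time. It was 24 to 31 with RLE or upper-quartile normalization, other filters, each distinct profile once, or rows without a name kept (28, added after the data were seen). It was 18 (8 higher and 10 lower) with a filter of 200 counts over the 14 animals and 22 without both HFL/LFH 33 and 43, with 14 shared, both added after the data were seen. The 8 genes of the difference between contrasts became 20 with DESeq2, 6 (5 higher and 1 lower) with the filter over the 14 animals, 6 with limma voom (2 higher and 4 lower, 3 shared) and 4 to 11 with an animal left out (4 without HFL/LFH replicate 33; added after the data were seen). The difference in position ran from -0.0164 (without HFL/LFH replicate 33) to 0.0991 with an animal left out, and was -0.0614 without both HFL/LFH 33 and 43. Of the other genes picked by the naming rule, 3 changed sign far from the threshold, ISG15 (-0.0785 without both HFL/LFH 33 and 43), CH25H (log2 fold change -0.0383 without HFL/LFH replicate 43 to 1.69 without LFH replicate 56) and CHAC1 (-3.995 without HFL/LFH replicate 43 to 0.129 without LFH replicate 5 with an animal left out, and -4.001 without both HFL/LFH 33 and 43). No list median changed sign under RLE or upper-quartile normalization, also added after the data were seen. Without both HFL/LFH 33 and 43, 9 list medians did, the farthest being T and NK cells (0.19 to -0.17), type I interferon genes (0.08 to -0.18) and matrix crosslinking enzymes, proteases and inhibitors (0.07 to -0.18). The cause of these changes was not tested. Genes below 1 CPM rest on few counts, where 3 counts equal 0.133 to 0.174 CPM.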

Other observations

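In a principal component analysis of the variance-stabilized values of the 14 animals, the first component (27.2% of the variance) did not separate the groups, with LFH animals from -19.3 to 16.7 and HFL/LFH animals from -14.7 to 25.5. On the second component (12.4%) LFH animals lay from -19.8 to -2.02 and HFL/LFH animals from 3.7 to 19.1. The component was chosen after its values were seen and was not tested. DESeq2 on the 44 animals called 34 genes beyond the 27 called by edgeR. Among the 5 genes that limma voom called and edgeR did not were PPARD, a nuclear receptor for fatty acids (voom log2 fold change 0.59), and LGALS2, a galectin of the gut and of myeloid cells (-0.70), both named after their values were seen.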
